A study of Mus musculus with 3 samples.

Results

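The 32 genes described here carry out or accompany glycolysis and the response of cells to low oxygen, and they were picked out of 32285 measured genes by matching a list of gene symbols to Ensembl identifiers. All 32 were found. They fall into 18 genes of glucose uptake, glycolysis and lactate handling, 4 genes of oxygen sensing and 10 genes known to be induced by hypoxia. Their unique molecular identifiers (UMIs, tags that mark single captured transcripts) were summed per cell class in single-cell libraries of mouse skin wounds, and levels are given as CPM, the UMIs of a gene scaled to a fixed total of UMIs for that class, so that a level is a share of the class's transcripts.

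The groups were Day 3, Day 7 and Day 14 after injury of dorsal skin in untreated C57BL/6J males of 7 to 12 weeks. The deposited descriptions speak of an incision, whereas the study's methods describe full-thickness wounds made with a biopsy punch. Wound tissue was pooled before it was dissociated for 1 h at 37 °C, and each day is 1 library. There is therefore no replicate of any day, no test between days was possible, and the intervals given are 95% intervals that cover counting error only.

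Glycolysis splits glucose into pyruvate and yields ATP without oxygen. When oxygen is short, or when growth and inflammatory signals call for it, lactate dehydrogenase turns pyruvate into lactate, which monocarboxylate transporters carry out of the cell. Prolyl hydroxylases mark the HIF alpha subunits for destruction while oxygen is present; in hypoxia the subunits persist and bind short motifs near target genes, many of which encode glycolytic enzymes. HIF proteins are thus set largely after translation, and the mRNA of Hif1a does not report HIF activity. Fresh wounds lose their vessels and fill with oxygen-consuming leukocytes, and are known as low-oxygen tissue.

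The 3 libraries held 5158 to 22924 barcodes and 38133650 to 120940799 UMIs. Pairs of libraries shared 19 to 111 barcodes, 14 to 83 of them among the cells kept in both. After filtering, 37460 cells formed 29 clusters, and the 32 genes were not used to form them. Classes were named from markers, and a class was used on a day where it held at least 50 cells. Summed fibroblast markers stood at 68321 to 141537 CPM in fibroblast-like cells and at 424 to 5410 CPM in macrophage-like cells, and summed neutrophil markers at 36462 to 54858 CPM in neutrophil-like cells and at 41.9 to 243 CPM in macrophage-like cells. The neutrophil-like cells were shallow, with a median of 1230 UMIs on Day 3 and 718 on Day 7, whereas the fibroblast-like cells of Day 3 had 44033. The nuclear transcript Gm42418, which overlaps ribosomal RNA sequence, was most abundant in the Day 7 library (11.7% of its UMIs, against 3.603% for Day 3 and 6.42% for Day 14), so that scaling without the most abundant genes is given wherever it moved a result.

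In the 4 classes that could be followed from Day 3, that day stood highest. The mean level of the 32 genes, on the log2(CPM + 1) scale, was 7.67 in fibroblast-like cells (95% interval 7.65 to 7.68), 7.41 in neutrophil-like cells (7.34 to 7.49), 7.06 in macrophage-like cells (7.04 to 7.08) and 6.70 in dendritic cell-like cells (6.63 to 6.77) on that day. None of these 4 intervals overlapped. The order depended on which genes were summed: the 18 glycolysis genes together took 9306 CPM in neutrophil-like, 7387 in fibroblast-like, 5718 in macrophage-like and 4505 in dendritic cell-like cells, while the 10 hypoxia-response genes took 3274 CPM in fibroblast-like, 2458 in neutrophil-like, 1662 in macrophage-like and 1546 in dendritic cell-like cells. Neutrophil-like cells thus had the larger sum of glycolysis genes and fibroblast-like cells that of the response genes, and 1 gene weighed heavily in each. Slc16a3 alone took 2064 CPM in neutrophil-like and 346 CPM in fibroblast-like cells. Gapdh, Tpi1, Pgam1, Eno1 and Ldha were each highest in fibroblast-like cells, and Slc2a1, Aldoa, Pgk1 and Pkm in neutrophil-like cells. Without Mif the response sums were 2160 CPM in fibroblast-like and 1894 CPM in neutrophil-like cells.

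On Day 7 the classes lay closer together. By the mean level, neutrophil-like cells were highest at 6.69 (6.63 to 6.75). Endothelial cell-like (6.49), T cell-like (6.48) and fibroblast-like cells (6.47) followed with overlapping intervals. Pericyte-like (6.35) and macrophage-like cells (6.34) also overlapped, and dendritic cell-like cells were lowest at 5.96. The lead of the neutrophil-like cells was lost, at a difference of -0.029 from endothelial cell-like cells, when cells had to hold at least 500 genes, and T cell-like cells came first when doublets were kept. Scaling by the median ratio or without the 50 most abundant genes gave a larger lead over endothelial cell-like cells. The order again depended on which genes were summed. Glycolysis genes took most in neutrophil-like cells (4852 CPM), then in macrophage-like cells (3664), while fibroblast-like cells stood at 2946 CPM. Response genes took most in fibroblast-like cells (1397 CPM), followed by endothelial cell-like (1143), pericyte-like (1121), T cell-like (970) and neutrophil-like cells (947). By Day 14 only 23 neutrophil-like cells were left, and they were not compared. The classes then separated into an upper group, with epithelial cell-like (6.37), pericyte-like (6.32), endothelial cell-like (6.27) and T cell-like cells (6.17), each overlapping the next in order, and a lower group with fibroblast-like (5.49), macrophage-like (5.48) and dendritic cell-like cells (5.46), whose intervals overlapped, and Schwann cell-like cells at 5.06. The classes of the upper group were not compared on Day 3. By sums on Day 14, glycolysis genes took most in T cell-like cells (3113 CPM) and response genes in epithelial cell-like cells (2046 CPM). Dendritic cell-like cells, of the lower group by the mean, took 2594 CPM of glycolysis genes, above the 2469 CPM of pericyte-like cells. Fibroblast markers, all 8 of them counted, were also found outside the fibroblast-like class on Day 14, at 19847 CPM in epithelial cell-like, 12771 in pericyte-like, 15440 in endothelial cell-like, 17314 in T cell-like, 24376 in Schwann cell-like and 5932 in dendritic cell-like cells. On Day 7 they summed to 18043 CPM in pericyte-like, 10205 in neutrophil-like, 7824 in T cell-like, 5749 in endothelial cell-like and 3138 in dendritic cell-like cells, and their part in the levels of these classes was not tested.

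**Figure D1:**
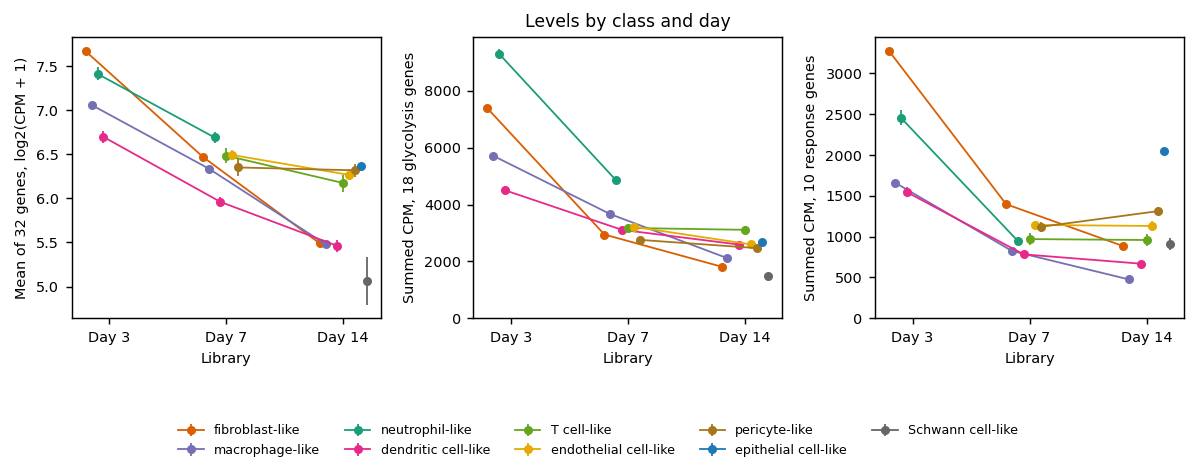
Levels of the gene groups by class (colours) and day (x axis), with 95% counting intervals: mean log2(CPM + 1) of the 32 genes (left), summed CPM of 18 glycolysis genes (middle) and of 10 hypoxia-response genes (right). Every class compared on Day 3 was lower on Day 7, and pericyte-like cells were almost level between Day 7 and Day 14 on the left axis, at 6.35 and 6.32.

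**Figure D2:**
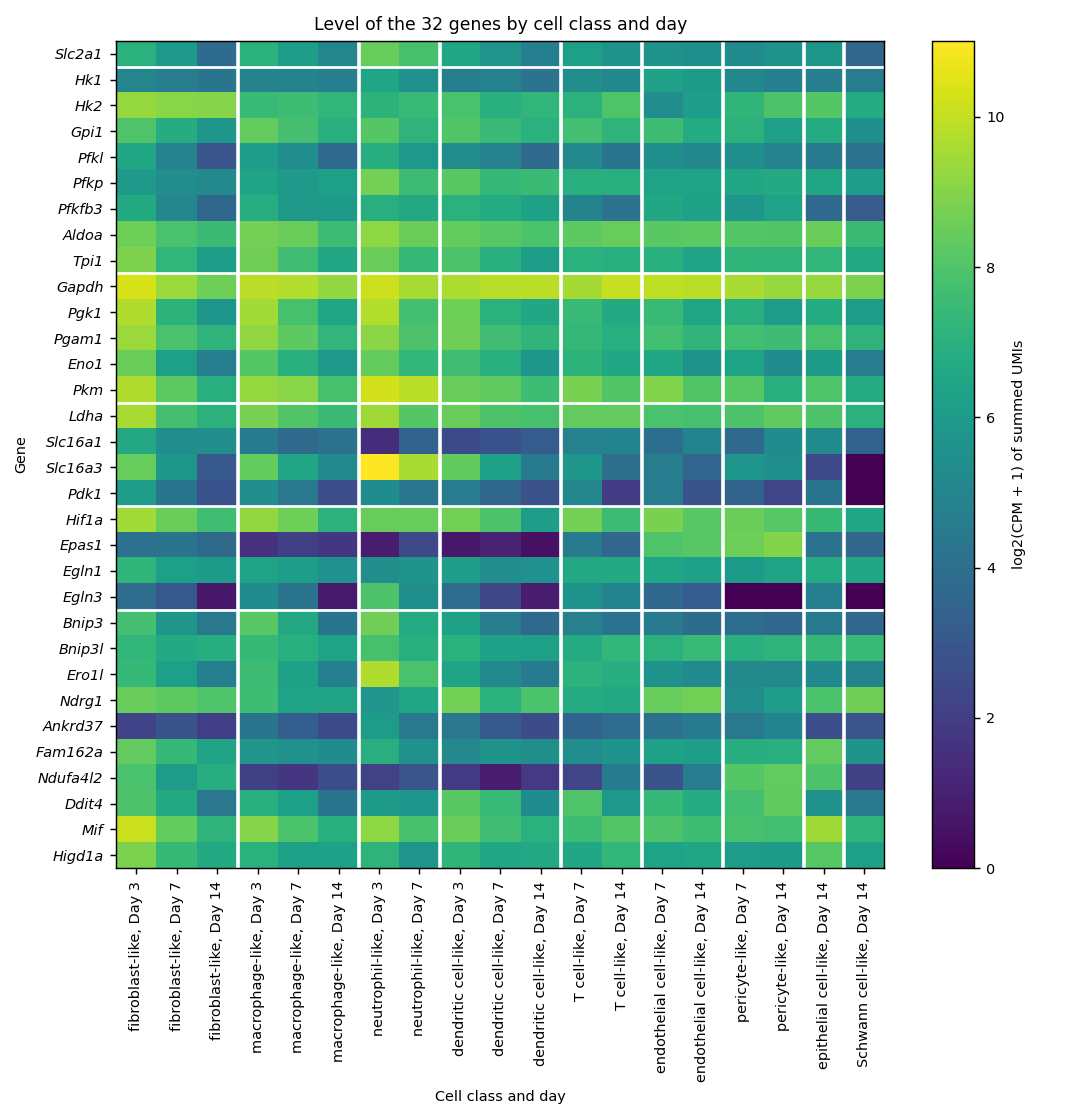
Level of each of the 32 genes (rows, ordered by role and parted by white lines) in each class and day with at least 50 cells (columns), as log2(CPM + 1) of summed UMIs. Most rows darken from Day 3 to Day 14 within fibroblast-like and macrophage-like cells, whereas Hk2 stays bright in fibroblast-like cells and Epas1 is bright in pericyte-like and endothelial cell-like columns.

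In the fibroblast-like class, whose clusters differed between days, most glycolysis and hypoxia-response genes took a smaller share of the transcripts at each later day. Levels stood in the order Day 3, Day 7, Day 14 for 28 of the 32 genes and in the opposite order for 0, and 48.3% of 3344 expressed genes were in that falling order. The median ratio of Day 3 to Day 14 was 4.56. A gene was compared between 2 sums when it reached 50 CPM in either and 10 UMIs in both, and was called at a 2-fold difference. From Day 3 to Day 7, 28 genes passed these limits, 20 were at least 2-fold lower and 0 at least 2-fold higher, beside 11% and 5.73% of all 3211 genes compared. Their median log2 ratio was -1.32, against -0.27 for all genes. By role, 14 of 17 glycolysis genes, 0 of 2 sensing genes and 6 of 9 response genes were lower. A gene that passed through its higher day alone was bound to differ, so these counts describe the genes that passed and are no test of the 32. The change was uneven along the pathway. Pgk1, phosphoglycerate kinase, fell from 829.7 to 137 CPM (log2 ratio -2.60, 95% interval -2.64 to -2.56). Slc16a3, the lactate exporter MCT4, fell from 346 to 56.0 CPM (-2.63), and Eno1, enolase, from 367 to 76.6 CPM (-2.26). Eno1 shares sequence with the copy Eno1b, which was counted apart, so its level is uncertain, and Gapdh, Pgk1, Pgam1, Ldha, Tpi1 and Mif have processed pseudogenes that may take or lend reads. Hk2, the hexokinase that traps glucose in the cell, went from 612 to 523 CPM (-0.23), Ndrg1, a hypoxia- and stress-induced gene, from 362 to 314 CPM (-0.20) and Pfkp, the platelet-type phosphofructokinase, from 58.7 to 42.8 CPM (-0.45). These last 3 were the least changed of the genes that passed.

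From Day 7 to Day 14, 23 genes passed in fibroblast-like cells, 10 were at least 2-fold lower and 0 at least 2-fold higher, beside 4% and 3.03% of 2801 genes. The median log2 ratio was -0.96, against -0.08 for all genes. The 10 were 6 of 12 glycolysis genes, 0 of 2 sensing genes and 4 of 9 response genes. The exporter Slc16a3 fell again, to 7.31 CPM (-2.94). Ddit4, an inhibitor of mTORC1 signalling, fell from 102 to 19.7 CPM (-2.37). Slc2a1, the glucose transporter GLUT1, fell from 59.1 to 13.2 CPM (-2.16). Hk2 was 516 CPM on Day 14, beside 523 on Day 7 (-0.02, -0.04 to 0.00), and was therefore nearly level while the transporters Slc2a1 and Slc16a3 dropped. Slc16a1, the lactate transporter MCT1, stood at 99.4, 41.96 and 41.4 CPM on the 3 days, and did not share the later drop of Slc16a3 (-0.02, -0.10 to 0.06). Bnip3l, a mitophagy receptor, was at 156, 104 and 115 CPM on the 3 days. Ndufa4l2, a HIF-induced protein that restrains the respiratory chain, was at 231, 66.5 and 117 CPM, and its Day 14 level rested on 1 cluster: in cluster 9 (leading genes Wfdc12, Igfbp2, Gal and Tnmd) it stood at 486 CPM. That cluster held 1439 fibroblast-like cells on Day 14 and 38 on Day 7. Without it Ndufa4l2 was at 66.02 CPM on Day 7 and 30.4 CPM on Day 14, and the log2 ratio turned from 0.81 to -1.12 (-1.20 to -1.04). Hk1, Epas1, Egln3 and Ankrd37 did not pass the limits in fibroblast-like cells in either step, and Pfkl, Pfkp, Pfkfb3, Slc16a1 and Pdk1 did not pass in the later step.

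Macrophage-like cells showed the same direction with smaller steps at first. From Day 3 to Day 7, 25 genes passed, 7 were at least 2-fold lower and 0 at least 2-fold higher, beside 7.79% and 1.9% of 3260 genes, and the median log2 ratio was -0.78 against -0.25 for all genes. The 7 were Pgk1, Eno1, Slc16a3, Bnip3, Ero1l, Ndrg1 and Mif. The steepest were Slc16a3, from 343 to 87.0 CPM (-1.98), Pgk1, from 725 to 221 CPM (-1.72), and Bnip3, a mitophagy receptor, from 289 to 99.1 CPM (-1.55). Gapdh was 928 and 854 CPM (-0.12), Aldoa, aldolase, 413 and 372 CPM (-0.15) and Hk2 171 and 192 CPM (0.17), the only gene of the 25 above 0. Leaving the 50 most abundant genes out of the total reduced the 7 to 3, beside 3.83% of all genes, and scaling by the median ratio to 4, beside 3.896%. The median of all genes was then 0.01 and 0 rather than -0.25. Hk1, Slc16a1, Pdk1, Epas1, Egln3, Ankrd37 and Ndufa4l2 did not pass in these cells in either step, nor did Pfkl and Fam162a in the later one. In these cells Gm42418 took 3.92%, 16.6% and 9.51% of UMIs on Days 3, 7 and 14, and the 8 fibroblast markers, all above 0, summed to 424, 3872 and 5410 CPM; their part in the ratios was not tested.

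From Day 7 to Day 14, 13 of the 23 genes that passed in macrophage-like cells were at least 2-fold lower and 0 at least 2-fold higher, beside 2.88% of 3017 genes in either direction. The median log2 ratio was -1.02, against 0.01 for all genes. The 13 were 8 of 14 glycolysis genes, 1 of 2 sensing genes and 4 of 7 response genes. Bnip3 fell further, to 18.6 CPM (-2.41), Ddit4 fell from 73.8 to 18.6 CPM (-1.99), and Ero1l, an oxidase that forms disulphide bonds in the endoplasmic reticulum, from 77.5 to 26.3 CPM (-1.56). Hif1a itself was at 605, 377 and 136 CPM, and fell by 1.48 on the log2 scale in this step. At the other end were Pfkp, at 60.4 and 76.2 CPM (0.34), Higd1a, a small mitochondrial inner membrane protein, at 75.7 and 78.6 CPM (0.05), and Ndrg1, at 81.6 and 84.5 CPM (0.05).

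Neutrophil-like cells could be compared between Day 3 (868 cells) and Day 7 (1694 cells) only. Of 28 genes that passed, 15 were at least 2-fold lower on Day 7 and 0 at least 2-fold higher, beside 11.1% and 9.08% of 2411 genes, with a median log2 ratio of -1.07 against -0.20. They were 8 of 16 glycolysis genes, 1 of 3 sensing genes and 6 of 9 response genes, and Slc16a1, Pdk1, Epas1 and Ndufa4l2 did not pass. Egln3, the oxygen-sensing hydroxylase PHD3 and itself a HIF target, fell from 244 to 43.4 CPM (-2.49, -2.92 to -2.09). Pgk1 fell from 846 to 212 CPM (-1.998) and Ero1l from 829 to 227 CPM (-1.87). Ndrg1 was at 52.2 and 93.2 CPM (0.84), Hk2 at 140 and 168 CPM (0.27) and Egln1, the hydroxylase PHD2, at 42.9 and 51.3 CPM (0.26), and the intervals of the last 2 included 0. Gm42418 took 1.33% of the UMIs of these cells on Day 3 and 21.96% on Day 7, and summed fibroblast markers, all 8 of them above 0 on both days, were 831 and 10205 CPM; the part of either in the ratios was not tested. With the 50 most abundant genes left out of the total, 8 of 28 members were at least 2-fold lower and 1 (Ndrg1) at least 2-fold higher, beside 4.36% and 16.7% of all genes. When cells had to hold at least 500 genes, or doublets were kept, 18 and 17 of 28 members were lower, beside 21.9% and 13.8% of all genes, and 0 were higher, beside 29.1% and 18.2%. The Day 7 class itself changed under both settings. It held 435 and 1952 cells, with summed neutrophil markers at 12073 and 25120 CPM rather than 36462, and macrophage markers at 11658 and 7124 CPM rather than 2142. On Day 3 macrophage markers stood at 550 CPM in these cells; their part in the ratios was not tested.

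**Figure D3:**
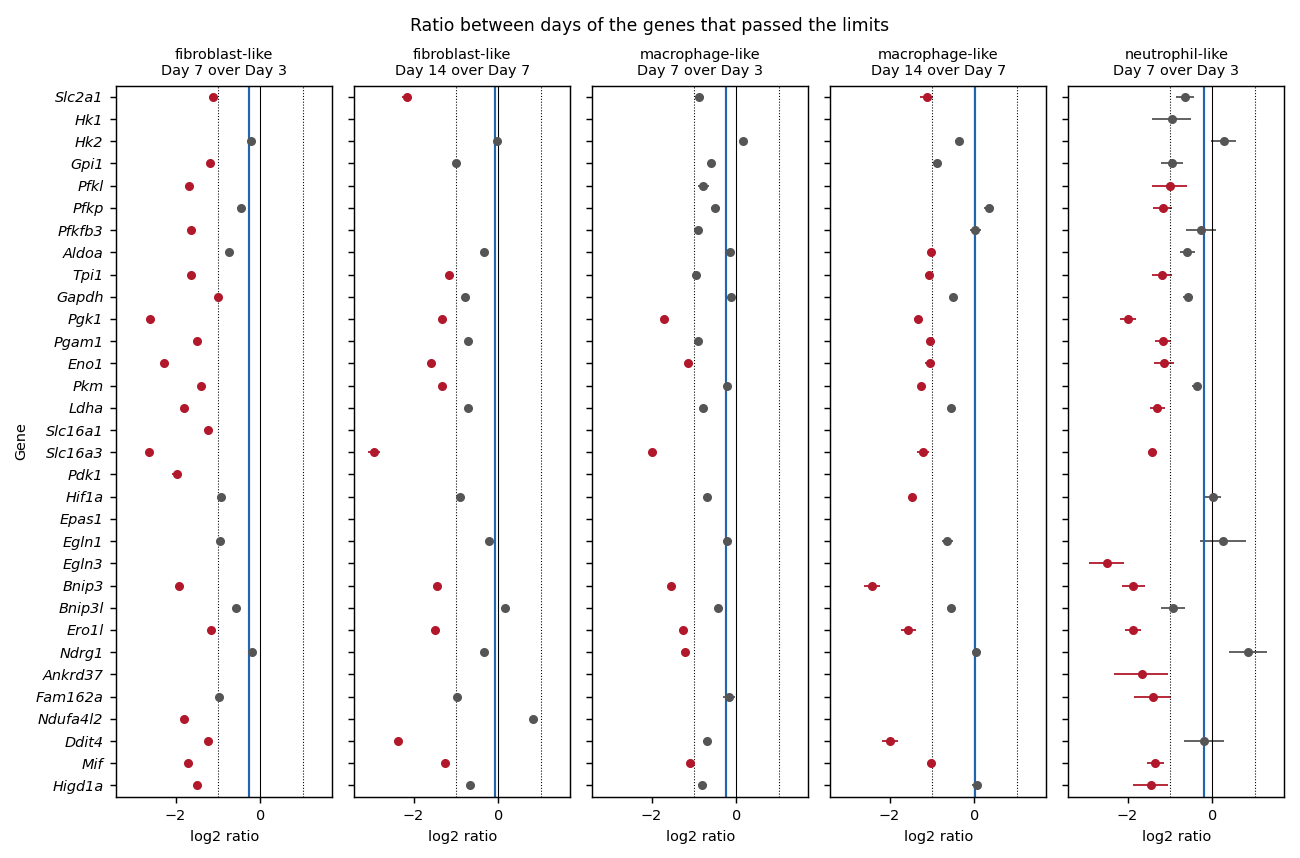
log2 ratio between days (x axis) of each gene that passed the limits (rows), with 95% counting intervals; red points are at least 2-fold lower, dotted lines mark 2-fold, and the blue line is the median of all genes compared. Points lie left of the blue line in most rows of all 5 panels, and 0 of them lie right of the upper dotted line.

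Another scaling of the totals moved the balance of calls over all genes. Of all genes called between Day 3 and Day 7, those higher on Day 7 made up 34.2% in fibroblast-like, 19.6% in macrophage-like and 45.1% in neutrophil-like cells. With the 50 most abundant genes left out the same shares were 55.2%, 46.8% and 79.3%, and with median-ratio scaling 59.6%, 46.4% and 62.2%. Between Day 7 and Day 14 in macrophage-like cells the share went from 50% to 39.0% without the 50 genes. The median ratio of the members stayed below that of all genes under each of these scalings.

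The clusters that made up a class differed between days, and the comparisons within 1 cluster were chosen after the data were seen. On Day 3, 92.3% of fibroblast-like cells were in cluster 13, led by Cxcl5, Saa3 and Car4, and on Day 14, 61.1% were in cluster 0 and 21.7% in cluster 9. Cluster 13 had a mean level of 7.69 on Day 3, when no other fibroblast-like cluster held 50 cells, and of 7.03 on Day 7, when the others stood between 5.58 and 6.62. Within cluster 13, 10 of 28 genes were at least 2-fold lower on Day 7 than on Day 3, beside 6.66% of genes; they included Pgk1, Eno1, Ldha, Slc16a3, Pdk1 and Bnip3. Within cluster 8, led by Akr1c18, Efhd1 and Cxcl13 and present in similar number on both days, 0 of 18 genes were at least 2-fold lower on Day 14 than on Day 7, beside 1.25% of genes, and the median log2 ratio was 0.03, although the mean level of all 32 differed by -0.22. The step from Day 7 to Day 14 was largest, at a difference of -1.16 in mean level, in cluster 3, which held 2431 cells on Day 7 and 106 on Day 14, and it was -0.37 in cluster 0 and -0.57 in cluster 11. In cluster 0, however, 0 of 16 genes that passed were at least 2-fold lower, with a median log2 ratio of -0.05 against 0.11 for all genes. The medians were -1.07 against 0.03 in cluster 3 and -0.50 against -0.06 in cluster 11.

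Macrophage-like cells differed in the same way between clusters. Cluster 2, led by Arg1 and Chil3, held 72.4% of the class on Day 3 and 7.84% on Day 7, and it had the highest mean level of the macrophage-like clusters on both days, 7.18 and 7.14. On Day 7 cluster 2 and the fibroblast-like cluster 13 (7.03) stood above the neutrophil-like class (6.69), the highest class of that day by this mean. Within cluster 2, 0 of 26 genes were at least 2-fold lower on Day 7, beside 5.18% of genes, and the median log2 ratio was -0.15 against -0.26 for all genes. Its summed glycolysis genes took 6224 CPM on Day 3 and 6453 CPM on Day 7, while Pgk1 alone went from 803 to 538 CPM and Slc16a3 from 409 to 227 CPM. Cluster 6, with Fcna, Cd163, Cbr2 and Folr2 as leading genes, was lowest on each day, at 5.90, 5.66 and 5.05. In cluster 5, led by Il10, Ccl8 and Cd163 and 45.1% of the class on Day 14, 3 of 20 genes (Pgk1, Slc16a3 and Bnip3) were at least 2-fold lower than on Day 7, beside 1.34% of genes. The other clusters that could be followed were all lower on the later day, by differences in mean level of -0.24 to -0.42 from Day 3 to Day 7 (clusters 1, 4 and 6) and of -0.39 to -0.92 from Day 7 to Day 14 (clusters 1, 4, 5, 6, 12 and 22). In the first step the genes that passed had median log2 ratios of -0.33, -0.50 and -0.39, against -0.24, -0.29 and -0.25 for all genes. All genes were thus lower too in that step, though by less than the genes that passed. In the second step the medians were -0.50 to -0.89, against -0.04 to -0.06 for all genes. Only 15 cells of cluster 2 were left on Day 14.

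Neutrophil-like cells of Day 3 fell into clusters 7 and 19 of similar size (427 and 441 cells). Ero1l stood at 1257 CPM in cluster 7 and 374 CPM in cluster 19, and the 10 response genes at 3274 and 1589 CPM. Slc16a3 had the opposite order, with 1140 CPM in cluster 7 and 3049 CPM in cluster 19. Cluster 7 held 97.9% of the class on Day 7, and within it 17 of 29 genes were at least 2-fold lower than on Day 3, beside 14.9% of genes. A further cluster outside this class, 14, with a median of 1028 UMIs and no class name, had the highest sums of any cluster on Day 3, with 11889 CPM of glycolysis genes and 5868 CPM of response genes in 94 cells, and it was at 2065 and 958 CPM on Day 7. Its best match was fibroblast, with 8 of 8 fibroblast markers passed and Apod, Mgp and Eln as leading genes. It stayed unnamed because its UMIs were low and no fibroblast marker was among its 10 leading genes.

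**Figure D4:**
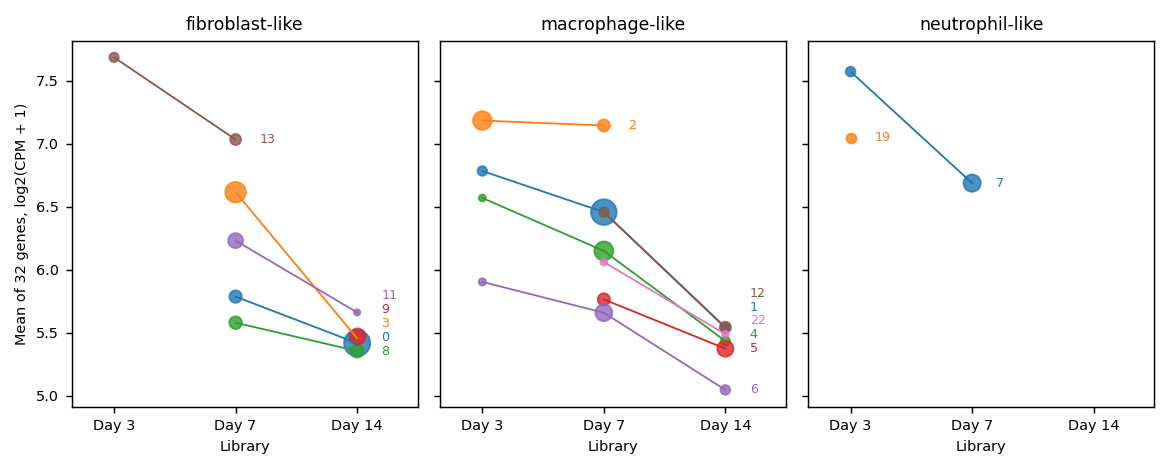
Mean level of the 32 genes, log2(CPM + 1), on each day (x axis) in every cluster with at least 50 cells in that library, for fibroblast-like, macrophage-like and neutrophil-like cells; point area grows with the number of cells and numbers name the clusters. Cluster 2 is level between Day 3 and Day 7 at 7.18 and 7.14, while cluster 3 falls from 6.62 to 5.46.

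Several of the genes that fell are textbook HIF targets, and the sequence before their start sites can be read for the motif that HIF binds. The letters ACGTG and GCGTG, the core of the hypoxia response element, were searched on both strands of the 250 bases upstream of the first RefSeq start listed for each gene (build GRCm38.p6, the mouse build called mm10 in the submitters' processing notes). ACGTG also lies within the E-box CACGTG. Of 27 members with an entry, 21 held at least 1 match (77.8%), beside 60.8% of 2523 genes compared in fibroblast-like cells and 38.6% of all 27025 genes. At least 2 matches were found in 59.3%, 30.9% and 16.8%, where a single CACGTG counts as 2 because it holds ACGTG on both strands. Hk1, Gpi1, Aldoa, Tpi1, Pkm and Mif held 0 in this window. Of these, Gpi1, Tpi1, Pkm and Mif were at least 2-fold lower in fibroblast-like cells from Day 3 to Day 7. Pfkp, among the least changed genes of that step, held 3 matches. Matches were thus both present and absent among the genes that fell 2-fold and among the others. No sequence without a match is shown. A match is a description of the letters and not of binding. The sequences shown, 5′ to 3′ in the direction of the gene with matches on either strand in capitals, belong to 4 genes that fell in fibroblast-like cells and to Hk2, which also holds matches and stayed near its level. They lie at chrX:106186850-106187099 (plus strand, Pgk1), chr7:46845554-46845803 (plus, Ldha), chr11:120948817-120949066 (plus, Slc16a3), chr7:138909507-138909756 (minus, Bnip3) and chr6:82774455-82774704 (minus, Hk2).
Pgk1: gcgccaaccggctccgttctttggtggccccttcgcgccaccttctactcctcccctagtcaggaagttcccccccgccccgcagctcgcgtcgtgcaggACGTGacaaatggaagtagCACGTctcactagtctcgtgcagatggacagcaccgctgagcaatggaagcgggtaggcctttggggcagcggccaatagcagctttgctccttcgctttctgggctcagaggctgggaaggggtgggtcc
Ldha: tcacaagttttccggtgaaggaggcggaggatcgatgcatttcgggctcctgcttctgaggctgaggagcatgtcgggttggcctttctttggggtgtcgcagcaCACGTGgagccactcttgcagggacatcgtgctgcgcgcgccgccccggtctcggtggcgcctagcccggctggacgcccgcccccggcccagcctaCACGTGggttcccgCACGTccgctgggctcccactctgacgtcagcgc
Slc16a3: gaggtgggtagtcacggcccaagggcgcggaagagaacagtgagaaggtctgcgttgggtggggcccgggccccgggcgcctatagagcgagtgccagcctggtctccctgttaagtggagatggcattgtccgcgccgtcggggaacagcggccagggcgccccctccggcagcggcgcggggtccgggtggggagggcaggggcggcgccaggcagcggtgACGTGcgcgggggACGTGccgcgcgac
Bnip3: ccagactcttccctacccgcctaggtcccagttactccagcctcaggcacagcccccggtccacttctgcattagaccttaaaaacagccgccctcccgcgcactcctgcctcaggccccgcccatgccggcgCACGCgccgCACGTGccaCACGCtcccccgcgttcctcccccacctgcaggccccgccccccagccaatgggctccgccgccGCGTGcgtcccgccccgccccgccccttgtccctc
Hk2: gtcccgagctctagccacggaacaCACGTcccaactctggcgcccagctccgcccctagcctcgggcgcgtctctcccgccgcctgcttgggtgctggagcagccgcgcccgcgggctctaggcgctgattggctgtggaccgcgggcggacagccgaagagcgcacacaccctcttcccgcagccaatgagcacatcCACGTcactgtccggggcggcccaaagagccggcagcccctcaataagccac
Pgk1 held 2 matches, Ldha 5, Slc16a3 2, Bnip3 5 and Hk2 2. Each CACGTG in Ldha and Bnip3 counts as 2 matches, so these sequences show fewer marked stretches than matches. The 2 matches of Slc16a3 begin 27 and 14 bases before its start.

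Hk2, Fam162a and Ndufa4l2 were at least 2-fold higher in fibroblast-like than in macrophage-like cells on all 3 days. On Day 3, 7 of 28 genes were at least 2-fold higher in fibroblast-like cells (Hk2, Slc16a1, Fam162a, Ndufa4l2, Ddit4, Mif and Higd1a) and 0 at least 2-fold lower, beside 24.1% and 29.8% of genes. Ndufa4l2 differed most, at 231 against 3.21 CPM (log2 ratio 6.17), then Fam162a, a mitochondrial HIF target, at 329 against 52.0 CPM (2.66), and Slc16a1 at 99.4 against 23.3 CPM (2.09). The lowest were Pfkp (-0.54), Bnip3 (-0.47) and Gpi1, the isomerase that makes fructose 6-phosphate (-0.37). A share of 7 in 28 lies near the 24.1% of all genes, whereas 0 lower calls stand beside 29.8%.

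On Day 7, 5 of 25 genes were at least 2-fold higher in fibroblast-like cells (Hk2, Ndrg1, Fam162a, Ndufa4l2 and Higd1a) and 0 at least 2-fold lower, beside 22.4% and 26.9%. Ndrg1 was at 314 against 81.6 CPM (1.94), Fam162a at 168 against 46.1 CPM (1.86) and Ndufa4l2 at 66.5 against 2.38 CPM (4.81), while Gpi1 (-0.96), Pfkfb3 (-0.88) and Bnip3 (-0.84) were the lowest. On Day 14, 20 genes passed, with 4 at least 2-fold higher (Hk2, Ndrg1, Fam162a and Ndufa4l2) and 4 at least 2-fold lower (Gpi1, Pfkp, Pfkfb3 and Eno1), beside 21.9% and 27.9%. Pfkfb3, which makes the activator of phosphofructokinase, was at 11.9 against 62.8 CPM (-2.40), Eno1 at 25.5 against 60.8 CPM (-1.25) and Pfkp at 35.5 against 76.2 CPM (-1.10). Hk2 was at 516 against 149 CPM (1.79), Ndrg1 at 249 against 84.5 CPM (1.56) and Ndufa4l2 at 117 against 5.24 CPM (4.48). The count of 4 lower genes became 2 of 20 without the 50 most abundant genes, with median-ratio scaling or when classes were set per cell, beside 24.4%, 23.4% and 27.1% of all genes.

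Neutrophil-like cells of Day 3 had high levels of the glucose transporter Slc2a1 and the lactate exporter Slc16a3, but the lowest level of the other lactate transporter, Slc16a1, at 2 UMIs or 1.68 CPM (0.204 to 6.08) against 23.3 CPM in macrophage-like and 99.4 CPM in fibroblast-like cells. Against macrophage-like cells 8 of 28 genes were at least 2-fold higher (Slc2a1, Hk1, Pfkp, Slc16a3, Egln3, Ero1l, Ankrd37 and Fam162a) and 1, Ndrg1, at least 2-fold lower, beside 19.5% and 42.4% of genes. Slc16a3 stood at 2064 against 343 CPM (2.59, 2.52 to 2.66), Egln3 at 244 against 39.1 CPM (2.64) and Pfkp at 417 against 85.1 CPM (2.29). Ndrg1 (-1.86), Egln1 (-0.96) and Ddit4 (-0.91) were the lowest. On Day 7, 4 of 24 genes were at least 2-fold higher (Slc2a1, Pfkp, Slc16a3 and Ero1l) and 0 at least 2-fold lower, beside 18.7% and 37.1%. Slc16a3 was at 772 against 87.0 CPM (3.15), Slc2a1 at 220 against 70.8 CPM (1.64) and Pfkp at 185 against 60.4 CPM (1.62), with Gpi1 (-0.59), Higd1a (-0.54) and Egln1 (-0.48) lowest. With median-ratio scaling the members called higher were 14 of 28 on Day 3 and 7 of 24 on Day 7, beside 28.98% and 27.4% of all genes under that scaling, so that the Day 7 share lay near the background. Of all genes called, those higher then made up 50.6% and 58.9% rather than 31.5% and 33.4%. At a minimum of 500 genes per cell, where the Day 7 class held macrophage markers at nearly the level of its neutrophil markers, 1 of 24 members was higher and 0 lower, beside 6.39% and 0.327% of all genes. With doublets kept the members were 4 and 0, beside 13.2% and 8.72%, so that the 37.1% lower beside 0 members held for neither setting.

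Some genes stood at least 2-fold above every other class of the day, and the shares given for all genes cover those at 50 CPM or more in 1 of the classes compared. On Day 3, 6 did so in neutrophil-like cells (Slc2a1, Hk1, Slc16a3, Egln3, Ero1l and Ankrd37) and 6 in fibroblast-like cells (Hk2, Slc16a1, Epas1, Fam162a, Ndufa4l2 and Higd1a), among 4 classes. Of the 31 members within that limit these were 6 and 5, beside 10.4% of all genes in neutrophil-like and 18.9% in fibroblast-like cells, and the latter share lay near that of the members. Slc16a3 was 5.96 times and Ero1l 4.48 times the next class, while Epas1 in fibroblast-like cells was at a low 16.9 CPM. On Day 7, among 7 classes, these were Slc2a1 and Slc16a3 in neutrophil-like cells, Hk2 in fibroblast-like cells (523 CPM, 2.72 times the next) and Ndufa4l2 in pericyte-like cells (278 CPM, 4.18 times the next). These 2, 1 and 1 of 28 members lay near the shares of all genes, 5.81% in neutrophil-like, 5.02% in fibroblast-like and 3.85% in pericyte-like cells. On Day 14, among 8 classes, Pdk1, Fam162a and Mif led in epithelial cell-like cells, Ero1l in T cell-like and Ddit4 in pericyte-like cells. Within the limit these were 2, 1 and 1 of 25 members, beside 4.52%, 4.1% and 3.94% of all genes in the 3 classes, so that the counts were near the background. Mif, a cytokine with tautomerase activity, stood at 689.96 CPM in the epithelial cell-like cells of that day, 2.58 times the next class. Fam162a stood there at 326 CPM and Pdk1, a kinase that inhibits pyruvate dehydrogenase, at 18.5 CPM.

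Epithelial cell-like cells of Day 14 had the highest level of 11 of the 32 genes, which were 9 of the 25 members at 50 CPM or more in some class, beside 12.7% of all such genes. For Pgk1, Aldoa, Egln1, Tpi1, Bnip3 and Slc2a1 the level was only 1.03 to 1.11 times that of the next class. Epithelial cell-like cells also had the highest sum of response genes, at 2046 CPM, beside 1313 CPM in pericyte-like and 884 CPM in fibroblast-like cells. Without Mif the sum was 1356 CPM, beside 1112 and 741 CPM. Their Ndufa4l2 (242 CPM), Higd1a (283 CPM) and Fam162a exceeded the fibroblast-like levels of that day. Slc16a3 was at 4.45 CPM in these cells, the lowest level among classes with any UMI of it, while Slc16a1 was at 38.5 CPM, beside 41.4 CPM in the fibroblast-like class, the highest of the day. Among classes, pericyte-like cells were highest for Ddit4 (319 CPM) and Ndufa4l2 (326 CPM) on Day 14, and for Epas1 on Days 7 and 14, the days on which they held at least 50 cells. By cluster, Ndufa4l2 was higher still in cluster 9 of the fibroblast-like class on Day 14, at 486 CPM.

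**Figure D5:**
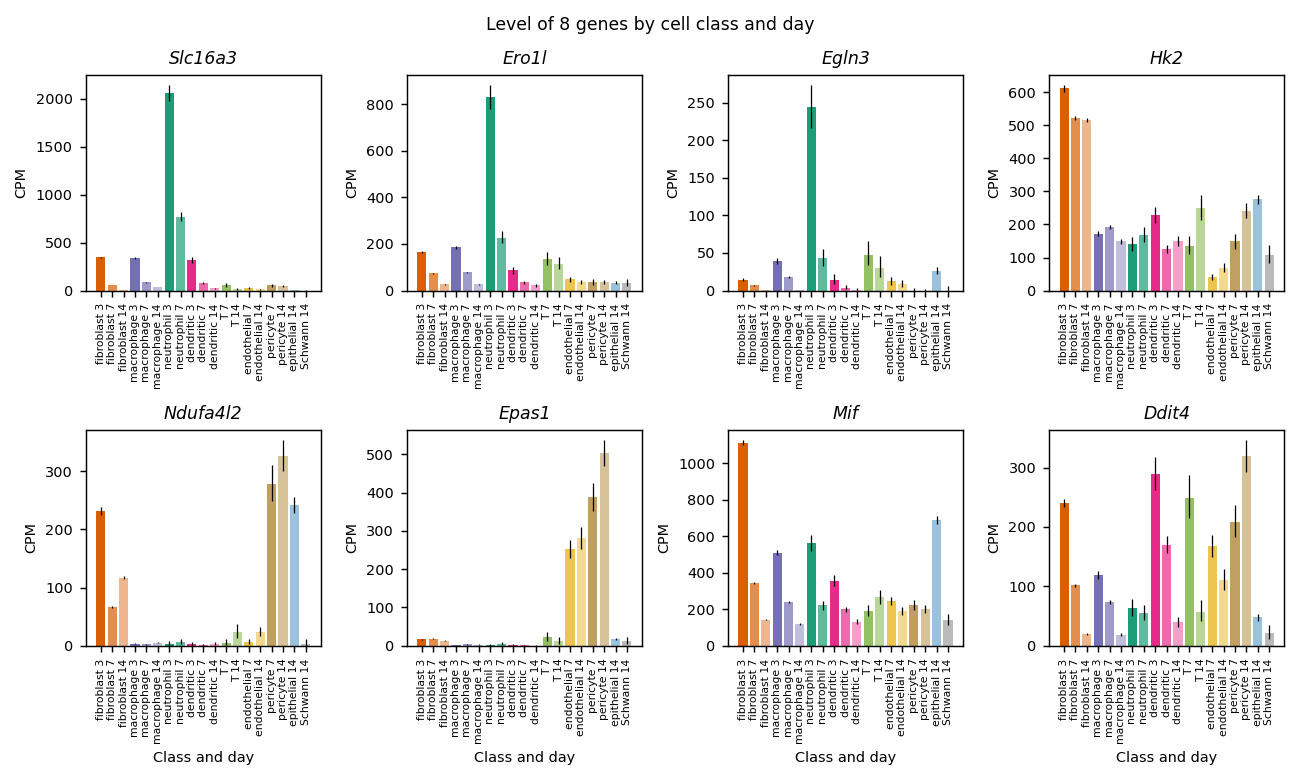
Level in CPM (y axes from 0) of 8 genes in each class and day with at least 50 cells, with 95% counting intervals; colours mark classes and paler bars later days. Slc16a3, Ero1l and Egln3 peak in neutrophil-like cells of Day 3, Hk2 is highest in fibroblast-like cells on all 3 days, and Epas1 is high in pericyte-like and endothelial cell-like bars.

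Among the oxygen-sensing genes, Epas1 was high in 2 classes and Hif1a was found in all. Epas1, which encodes HIF-2 alpha and is known from endothelium, stood at 387 CPM on Day 7 and 503 CPM on Day 14 in pericyte-like cells and, in the endothelial cell-like class, at 252 and 280 CPM, and no other named class of at least 50 cells exceeded 22.5 CPM on any day. Hif1a, present in all classes, was highest on Day 3 in fibroblast-like cells (712 CPM) and lowest on Day 14 in dendritic cell-like cells (71.8 CPM). Egln1 varied less, between 42.9 and 145 CPM. Egln3 was not seen in pericyte-like cells on Day 7 or Day 14, where 3 counts would be 2.61 and 1.69 CPM.

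Shares of cells put neutrophil-like cells first for their leading genes once every cell was thinned to 500 UMIs. Slc16a3 was then found in 57.9% of neutrophil-like cells of Day 3 (95% interval 54.6 to 61.3), 17.7% of fibroblast-like and 14.8% of macrophage-like cells. Without thinning, 76.6% of neutrophil-like cells (median 1230 UMIs), 92.01% of fibroblast-like cells (44033 UMIs) and 54.9% of macrophage-like cells (4053 UMIs) had a UMI, so that fibroblast-like cells then came first. The lowest class, dendritic cell-like cells, had 11.5% after thinning and 54.0% before it, at 7161 UMIs. Ero1l was found in 22.5% of thinned neutrophil-like cells (19.7 to 25.4) and 8.72% of fibroblast-like cells, and Egln3 in 9.10% (7.27 to 11.2) and 0.969%. Before thinning these shares were 37.4% and 89.6% for Ero1l and 21.9% and 28.8% for Egln3, and dendritic cell-like cells had 1.77% and 0.885% after it. For Epas1 the thinned share on Day 14 was 23.4% in pericyte-like (19.5 to 27.7) and 16.5% in endothelial cell-like cells. It was 0.124% in the macrophage-like class of that day. Without thinning, the same classes stood at 75.7%, 58.9% and 0.963%, with medians of 3930, 3865 and 3534 UMIs.

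The other genes of the pathway moved with the members only in part. Of 36 further hypoxia genes, 17 passed in fibroblast-like cells from Day 3 to Day 7, and 11 were at least 2-fold lower and 0 higher, beside 11% of all genes lower. From Day 7 to Day 14 the numbers were 14, 4 and 0, beside 4%. Gys1, glycogen synthase, fell from 66.8 to 16.7 CPM (-2.002) and Lox, the collagen cross-linking lysyl oxidase, from 2298 to 658 CPM (-1.80). In the later step Plod2, which hydroxylates collagen lysines, fell from 329 to 81.6 CPM (-2.01) and Angptl4 from 123 to 57.7 CPM (-1.09), while Rora was at 71.3 and 142 CPM (0.997) and Pam, an enzyme of peptide amidation, at 174 and 229.5 CPM (0.40). In macrophage-like cells 5 of 10 further hypoxia genes were at least 2-fold lower from Day 3 to Day 7, beside 7.79% of all genes, led by Cxcr4 (1243 to 264 CPM), Bhlhe40 (373 to 111 CPM) and the vessel growth factor Vegfa (569 to 198 CPM). From Day 7 to Day 14, 1 of 9 was lower, beside 2.88%, namely Hmox1, which degrades haem (1563 to 640 CPM), followed by Plod1 (-0.95).

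Genes of pyruvate oxidation and the TCA cycle, which take the mitochondrial route, had between days 2 calls in fibroblast-like cells and 0 in the other classes compared, counts too small to set apart from the shares of all genes. Of 20, 12 passed in fibroblast-like cells from Day 3 to Day 7, with 1 at least 2-fold lower (Cs, citrate synthase) and 1 at least 2-fold higher, Mpc2, a subunit of the mitochondrial pyruvate carrier, which went from 36.6 to 74.98 CPM (1.03), beside 11% and 5.73% of all genes. Of the 12, 10 were below 0, and their median log2 ratio was -0.49, against -0.27 for all genes. From Day 7 to Day 14, 8 passed and 0 were called in either direction, beside 4% and 3.03%. The median log2 ratio was -0.35, against -0.08 for all genes, with Mpc2 at 111 CPM on Day 14 (0.57). In macrophage-like cells 0 of 11 and 0 of 10 were called in the 2 steps, beside 7.79% lower and 1.9% higher in the first and 2.88% each way in the second. The medians were -0.11 and -0.14, against -0.25 and 0.01 for all genes. Mpc1, the other carrier subunit, was at 58.2, 93.3 and 124 CPM over the 3 days in these cells, and Mpc2 at 51.9 and 69.3 CPM on Days 7 and 14. Of 9 further oxygen-sensing genes, 3 or 4 passed in each step, and Arnt, the HIF beta subunit, was the only one called, at least 2-fold lower in macrophage-like cells from Day 3 to Day 7. The log2 ratios of Elob, a partner of the VHL ubiquitin ligase, and Os9 were 0.69 and 0.59 in fibroblast-like cells and 0.45 and 0.69 in macrophage-like cells from Day 3 to Day 7, and that of Elob was 0.56 in macrophage-like cells from Day 7 to Day 14. The neutrophil-like cells had 4 of 13 further hypoxia genes at least 2-fold lower on Day 7, beside 11.1% of all genes, among them Bhlhe40 (833 to 208 CPM), Gbe1 (62.3 to 23.1 CPM) and P4ha1 (262 to 114 CPM), and 1 higher, beside 9.08%, which was Lox (22.7 to 73.7 CPM), a gene that stood at 658 CPM in the fibroblast-like cells of that day. Their 4 TCA genes that passed were not called, with Mdh2 at 0.46 and Mpc1 at 0.18. Against macrophage-like cells, 6 of 9 TCA genes were at least 2-fold lower in neutrophil-like cells on Day 3 and 4 of 9 on Day 7, and 0 were higher. The shares of all genes lower in that comparison were 42.4% and 37.1%, so that the Day 7 count in particular lay near the background.

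Genes set off by dissociation were read beside these results. The summed level of 8 of them, among them Fos, Jun and Hspa1a, was 8244, 7795 and 9051 CPM in fibroblast-like cells, 10549, 8242 and 9287 CPM in macrophage-like cells, and 18624 and 11152 CPM in neutrophil-like cells of Day 3 and Day 7. From Day 3 to Day 7 this sum was thus lower in all 3 classes, as most members were. From Day 7 to Day 14 it was higher in fibroblast-like and macrophage-like cells, opposite to most members, and its part in these results was not tested. Because CPM are shares, less RNA of a gene in a class and more RNA of other genes in it cannot be told apart.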

How the data were processed

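Skin wounds of male C57BL/6J mice were profiled by droplet single-cell RNA sequencing with 3′ chemistry, 1 library per day. The authors made the deposited UMI count tables, whole-number counts per gene and barcode that are not normalised, with Cell Ranger 6.0.0 on build mm10 per the submitters' processing notes; the annotation is not given in the sources used here. Of 32285 Ensembl IDs, 32158 found a symbol.

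The members and the other gene lists were chosen with earlier results of these data known. Cells were kept at 200 genes or more, 500 UMIs or more with no more than 10% of UMIs mitochondrial (4452, 21568 and 14472 cells on Days 3, 7 and 14). Simulated-doublet scoring with 50 neighbours then removed 92, 1978 and 962 cells, a share of 0.5 of the rate of 0.8% per 1000 barcodes. The libraries were clustered together without alignment (2000 variable genes without any member, 30 components, 15 neighbours, Leiden resolution 1). A cluster took the class with at least 3 detected markers and the highest mean level. It stayed unnamed if another class came close or had more markers among the 10 leading genes of the cluster. The same held if its UMIs were low and no marker of the class was among those 10. By a condition added after the clusters were seen, it also stayed unnamed at a score under a share of 0.5 of the best cluster of that class.

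For each class and library the UMIs of a gene were added up and scaled to CPM. Levels have exact Poisson, ratios exact conditional binomial and shares Clopper-Pearson intervals at 95%; a group at 0 was set against 3 counts. Genes were called at a 2-fold ratio with 50 CPM in either sum and 10 UMIs in both. Named by rule are the 3 highest and 3 lowest members of each comparison, members 2-fold above all other classes, and, of the other lists, the 3 highest and 3 lowest in the fibroblast-like and macrophage-like day comparisons; other genes given with values were chosen after their values were seen. Of the other lists, 1 gene that the rule names is not reported here. The ratio intervals were tested on simulated Poisson counts only, which is the error that they assume. That test does not cover variation between cells, animals or libraries. Aldoa had a second Ensembl ID with at most 1 UMI a library, which was left out; of 32 members 5 had no promoter entry. Python 3.11.15, numpy 2.4.6, scipy 1.17.1, scikit-learn 1.9.0 and leidenalg 0.10.2 were used. Alternatives were other scalings, filters, doublet limits, clusterings, limits, folds and pseudocounts and, chosen after seeing the data, comparisons within 1 cluster or without cluster 9.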

Additional observations from a re-analysis of the deposited data

Results flagged for a closer look

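Ndrg1 moved in opposite directions between Day 3 and Day 7 in different classes, which is why it is listed here. In neutrophil-like cells it was 0.84 higher on the log2 scale on Day 7 (95% counting interval 0.39 to 1.30), at 52.2 and 93.2 CPM, and in macrophage-like cells its log2 ratio was -1.22, at 190 and 81.6 CPM. The difference between these ratios was not tested, since each day is 1 library. Summed fibroblast markers in the neutrophil-like cells were 831 CPM on Day 3 and 10205 CPM on Day 7, and Ndrg1 stood at 314 CPM in the fibroblast-like cells of Day 7; the part of these values in the ratio was not tested.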

How the results depend on the processing

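With 1 library per day no replicate could be left out, and p-values were not computed. No paired analysis was possible because each day has 1 library and no result comes from a test. Of the alternative values of the counts and class orders, 267 stayed within 1.5 times of the reported count or within the counting interval, 35 moved and 1 reversed; of those of single genes 509 stayed and 154 moved. At a fold of 1.5, the members lower were 17 of 23 in fibroblast-like Day 14 over Day 7 (10.9% of all genes at that fold), 17 of 25 in macrophage-like Day 7 over Day 3 (24.97%), 7 of 20 and 8 of 25 in fibroblast-like over macrophage-like cells on Days 14 and 7 (38.2% and 35.7%), and 4 of 28 and 1 of 24 in neutrophil-like over macrophage-like cells on Days 3 and 7 (50.98% and 49.97%). Those higher were 1 of 23 in fibroblast-like Day 14 over Day 7 (8.32%), 1 of 28 in neutrophil-like Day 7 over Day 3 (17.3%) and 11 of 28 in fibroblast-like over macrophage-like cells on Day 3 (31.3%). The 7 of 20, 8 of 25 and 11 of 28 lay near the shares of all genes. With median-ratio scaling the members lower were 4 of 25 in macrophage-like Day 7 over Day 3 (3.896% of all genes) and 2 of 20 in fibroblast-like over macrophage-like cells on Day 14 (23.4%), and those higher were 1 of 28 in neutrophil-like Day 7 over Day 3 (11.9%) and 14 of 28 and 7 of 24 in neutrophil-like over macrophage-like cells on Days 3 and 7 (28.98% and 27.4%). Without the 50 most abundant genes the members lower were 3 of 25 in macrophage-like and 8 of 28 in neutrophil-like Day 7 over Day 3 (3.83% and 4.36%), 2 of 20 in fibroblast-like over macrophage-like cells on Day 14 (24.4%) and 2 of 28 in neutrophil-like over macrophage-like cells on Day 3 (43.7%), and 1 of 28 was higher in neutrophil-like Day 7 over Day 3 (16.7%). An expression limit of 10 CPM gave 2 of 32 and 1 of 31 members lower in fibroblast-like over macrophage-like cells on Days 3 and 7 (23.3% and 21.6%), averaging CPM over cells gave 3 of 25 on Day 7 (27.4%), classes set per cell gave 2 of 20 on Day 14 (27.1%), a 5% mitochondrial limit gave 3 of 28 lower in neutrophil-like over macrophage-like cells on Day 3 (42.05%), and 500 genes per cell gave 1 of 24 higher on Day 7 (6.39%). In comparisons within 1 cluster, chosen after seeing the data, the members lower were 10 of 28 (cluster 13, 6.66% of all genes) and 0 of 18 (cluster 8, 1.25%) in the fibroblast-like comparisons and 0 of 26 (cluster 2, 5.18%) and 3 of 20 (cluster 5, 1.34%) in the macrophage-like ones. The lead of fibroblast-like over neutrophil-like cells on Day 3 was 0.095 with median-ratio scaling, 0.14 at a pseudocount of 10 CPM and 0.42 without the 50 genes. The lead of neutrophil-like over endothelial cell-like cells on Day 7 was 0.97 with median-ratio scaling, 0.37 without the 50 genes, 0.070 with doublets kept and reversed to -0.029 at 500 genes per cell. Apart from the scalings, the limits and the folds, whose own construction moves the counts, the cause was not tested. Depth limits the neutrophil-like cells of Day 7 most.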
